A study of Homo sapiens with 8 samples.

Results

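The genes described are the plasminogen activators PLAU and PLAT, the activator receptor PLAUR, and the serpins SERPINE2, SERPINB2, SERPINB5, SERPINB7 and SERPINB8. Every array probe whose platform annotation gives 1 of these 8 symbols was taken. That gave 11 probes for 7 of the 8 genes, out of 20042 genes named on the array, since no probe is named SERPINB2. The cells were SUM159 trailblazers, a subline of the human triple-negative breast cancer line SUM159 selected for invasive behaviour. One line stably carried the doxycycline-inducible pLIX vector with ΔNp63α, the p63 isoform without the N-terminal transactivation domain, tagged with the V5 epitope. The control line carried the empty pLIX vector. Each line was kept for 5 days without doxycycline or with doxycycline at 1 ug/ml, which gave 4 groups of 2 single-colour Illumina bead arrays. The p63 line without doxycycline carries the vector too, so it is the uninduced state and not a line without the transgene. Each vector is represented by 1 line, so vector and line cannot be told apart. The labels do not say that replicates were separate cultures, so p-values measure the spread between these arrays, which may be technical.

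Plasminogen activators are secreted serine proteases that cut the zymogen plasminogen to plasmin, which degrades fibrin and pericellular matrix. PLAU (urokinase) acts mainly at the cell surface, bound to its receptor PLAUR, and PLAT (tissue-type activator) acts mainly on fibrin and at cell surfaces. Serpins are protease inhibitors that trap their target by a change of shape. SERPINE2 (protease nexin 1) inhibits thrombin and both activators, and SERPINB2 (PAI-2) inhibits the activators. SERPINB5 (maspin) is a clade B serpin that does not undergo the inhibitory change of shape and is expressed in mammary epithelium, where p63 and p53 have been described as its transcriptional activators. SERPINB7 and SERPINB8 are clade B serpins expressed in skin and other epithelia.

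The clade B members lie in 1 row of serpin genes on chromosome 18. In the order of the RefSeq annotation (GRCh38.p14) the row is SERPINB5, SERPINB12, SERPINB13, SERPINB4, SERPINB3, SERPINB11, SERPINB7, SERPINB2, SERPINB10 and SERPINB8. RefSeq promoter windows of 300 bases, from 250 before to 50 after the annotated start, were found for 7 of the 8 genes, 11 windows in all, and none was found for PLAT. The windows of SERPINB5 (chr18:63476708-63477007, plus strand) and SERPINB8 (chr18:63969831-63970130, plus strand) are shown because these genes stand at the ends of the row and gave different readouts below. The second of the 2 PLAU windows (chr10:73910882-73911181, plus strand) is shown as that of the activator with the lower level in the p63 line. Capitals mark the AP-1 element TGANTCA and a paired p53-family core, which is CNNG, then 6 bases of any kind, then CNNG again, both searched on both strands (N is any base).
SERPINB5: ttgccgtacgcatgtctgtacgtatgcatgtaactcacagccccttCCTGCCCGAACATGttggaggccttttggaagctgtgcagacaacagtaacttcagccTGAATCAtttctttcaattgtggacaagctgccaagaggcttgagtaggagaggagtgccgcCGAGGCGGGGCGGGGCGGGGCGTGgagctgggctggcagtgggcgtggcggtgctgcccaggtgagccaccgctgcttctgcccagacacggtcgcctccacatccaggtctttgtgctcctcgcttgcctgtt
SERPINB8: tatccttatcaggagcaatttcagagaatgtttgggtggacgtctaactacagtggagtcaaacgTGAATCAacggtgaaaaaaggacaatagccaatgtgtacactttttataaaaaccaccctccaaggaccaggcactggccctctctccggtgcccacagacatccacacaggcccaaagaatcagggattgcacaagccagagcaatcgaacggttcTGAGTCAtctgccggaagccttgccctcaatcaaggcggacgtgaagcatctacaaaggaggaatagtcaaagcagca
PLAU: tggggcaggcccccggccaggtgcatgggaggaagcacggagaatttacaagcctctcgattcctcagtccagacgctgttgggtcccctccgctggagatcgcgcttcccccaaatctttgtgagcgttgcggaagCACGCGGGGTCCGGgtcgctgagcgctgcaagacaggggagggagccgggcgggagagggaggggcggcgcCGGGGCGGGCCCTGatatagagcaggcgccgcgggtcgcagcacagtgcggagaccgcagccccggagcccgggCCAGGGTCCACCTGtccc

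The SERPINB5 window holds 4 matches to the p53-family core, of which 3 overlap one another in the GC-rich run, and 1 AP-1 match (TGAATCA) upstream of the annotated start. The SERPINB8 window holds 2 AP-1 matches and no p53-family core. The PLAU window shown holds 3 p53-family cores and no AP-1 match, and the other PLAU window holds neither. Among genes without a call in the main setting below, the SERPINE2 windows hold 2 and 10 cores and the PLAUR window 3. Of the SERPINB7 windows, the first holds 3 cores and the others none, and the SERPINB2 window holds none. The core was therefore not limited to members with a call. The p53-family core is loose and was found in 73.9% of all 34943 promoter windows of this length, whereas the AP-1 letters were found in 7.72%. AP-1 matches were also found in the windows of PLAUR (1), SERPINB2 (1) and 2 of the 3 SERPINB7 windows (2 each), and in neither SERPINE2 window. The TEAD letters GGAATG were in none of the 11 windows, against 14.0% of all windows. The NF-kappaB letters, GGG, then 5 bases of any kind, then CC, some of which overlap p53-family cores in the PLAU window shown, were in 58.6% of all windows and 1 time in that of SERPINB5. A match is a match of letters and not a binding site.

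The arrays shared 1 distribution of values, with a median intensity of 113.5 and a range of 89.2 to 27456.4 in linear units. An intensity above 114.3 counted as above background, a level taken from the spread of the dimmest values, and 23086 of 47304 probes passed it on both arrays of at least 1 group. Spearman's correlation between arrays was 0.970 to 0.975 within groups and 0.954 to 0.975 between groups, so the ranges overlap. No probe is named TP63, so the induction of the transgene was not checked on these arrays. The mesenchymal markers VIM, CD44, AXL, FN1, ZEB1 and TWIST1 were all above background. The epithelial junction genes CDH1, EPCAM and CLDN3, the luminal genes ESR1, PGR and ERBB3, and the basal keratinocyte genes KRT5, DSG3 and IVL did not pass the filter, and neither did PTPRC, CD3E, PECAM1, CDH5 and VWF of blood and endothelium. Of the same lists, CLDN4 (junctions), GATA3 and KRT18 (luminal), KRT14 (basal) and HBB (blood) passed the filter. Summed over the 6 mesenchymal markers, intensity was 25929.4 to 26354 in the empty-vector line without doxycycline and 27741.8 to 28237.3 with it, and 22444.1 to 23423.8 and 21059.3 to 21469 in the p63 line. KRT14, the 1 basal marker kept, was at 119.6 to 123.2 in the induced p63 line and at 102.3 to 112.9 in the other groups. The latter values are under the background level, so KRT14 passed the filter only through the induced p63 line, where it was high. CLDN4 was at 117.1 to 117.7 in the induced p63 line, 112.2 to 117.9 in the uninduced one and 107.9 to 113.3 in the empty-vector line. It too passed the filter only through the induced p63 line. GATA3 and KRT18 summed to 466.2 to 544.1 in the induced p63 line and 390.2 to 479.1 in the others, and HBB was at 106.8 to 117.8 over all arrays. The mesenchymal sums differed between the groups compared below. They add linear intensities, so the brightest probes weigh most, and whether the 6 markers moved together is not shown. KRT14 also differed, close to background and with the limit of the filter given above. The part of these markers in the results was not tested.

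All 9 probes of PLAU, PLAT, PLAUR, SERPINE2, SERPINB5 and SERPINB8 were above background on all 8 arrays, and were tested. Both SERPINB7 probes were dim on all 8 arrays, at 100.6 to 111 (ILMN_1767685) and 102.3 to 109.7 (ILMN_2395139), so SERPINB7 has only an upper bound here and was not tested. With doxycycline in the p63 line, SERPINB5 and PLAT rose, and the probes of PLAU, PLAUR, SERPINE2 and SERPINB8 did not pass the test. Thus 2 of the 9 probes rose and 0 fell, against 1.56% of all 23086 tested probes called in either direction (0.862% higher and 0.693% lower). Because the members were chosen with earlier results of these data known, such counts, here and below, do not test the family. In the empty-vector line, doxycycline gave 0 calls among the 9 probes and 0.00% over all probes. The groups with and without doxycycline did not overlap for 4 of the 9 probes in the p63 line, against 40.4% of all probes, and for 3 of the 9 in the empty-vector line, against 34.6%. These shares are near the background. Differences are on the log2 scale after background correction with an offset of 50. The offset makes the changes of dim probes smaller, while the subtraction of background makes them larger. Where both values are given below (PLAU, SERPINB5 and F3), the difference was larger than without background correction. The folds are therefore not ratios of the deposited intensities. A call is an adjusted p under 0.05 from limma, with Benjamini-Hochberg adjustment over all 23086 probes.

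**Figure D1:**
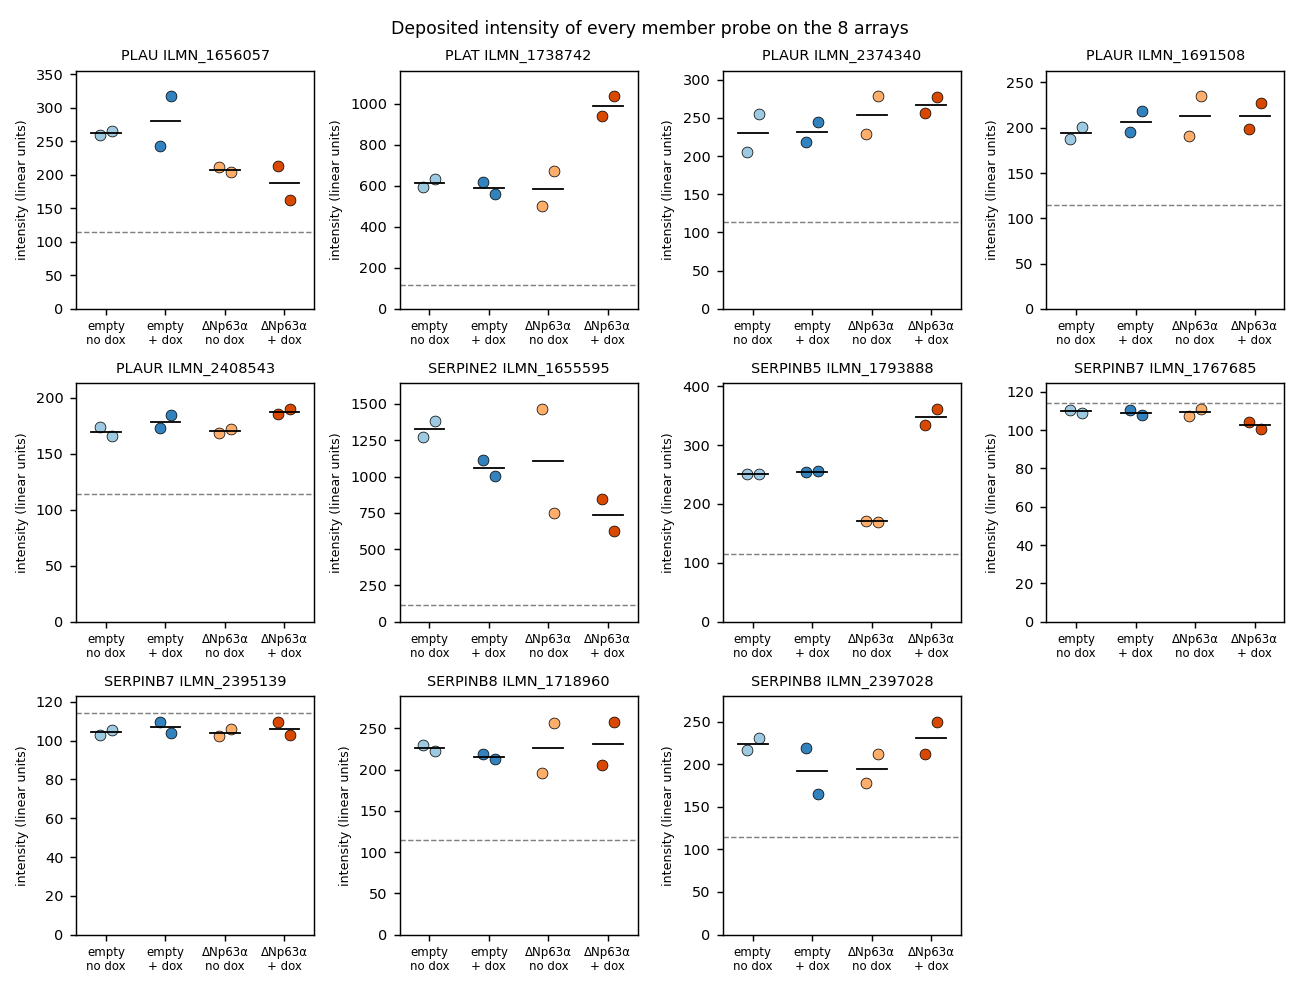
Deposited intensity in linear units (vertical axes, from 0) of each of the 11 probes on the 8 arrays. Points are single arrays, black bars are group means, and the dashed line is the background level of 114.3. SERPINB5 was lowest in the p63 line without doxycycline (171.8 and 169.3) and highest in it with doxycycline (334.3 and 361.3), PLAT stood apart in the p63 line with doxycycline (941.1 and 1036.7), and both SERPINB7 probes lay under the line.

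PLAT was measured by 1 probe (ILMN_1738742). Its intensity was 592.1 and 635.0 in the empty-vector line without doxycycline and 620.5 and 558.5 with it. It was 501.3 and 671.6 in the p63 line without doxycycline and 941.1 and 1036.7 with it. Both arrays of the induced p63 line were above all 6 others, which overlapped among their 3 groups. With doxycycline in the p63 line, PLAT rose 1.76-fold, by 0.82 ± 0.14 on the log2 scale (SE; 95% interval 0.50 to 1.13; adjusted p = 0.0176). It ranked 84 by size of rise among the 23086 probes tested. The same comparison in the empty-vector line gave -0.06 (interval -0.38 to 0.25; adjusted p = 0.992). The difference between these effects was 0.88 ± 0.20 (interval 0.43 to 1.33) and did not pass the test over all probes (unadjusted p = 0.00117, adjusted p = 0.139). So the response of PLAT was not shown to differ between the lines. In these bulk samples, a change in the number of cells that express a gene and a change in RNA per cell cannot be told apart.

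Without doxycycline the lines did not differ detectably in PLAT (-0.09 for p63 against empty vector, interval -0.40 to 0.23, adjusted p = 0.895). With doxycycline in both, PLAT was 1.73-fold higher in the p63 line (0.79 ± 0.14, interval 0.48 to 1.11, adjusted p = 0.0101). The rise in the p63 line depended on single arrays. PLAT was no longer called without p63 no-doxycycline replicate 1 (0.59, adjusted p = 0.136) or without p63 doxycycline replicate 2 (0.74, adjusted p = 0.138). It was also not called when only the 4 arrays of the p63 line were fitted (0.82, adjusted p = 0.0697). With doxycycline in both lines, the PLAT call was lost without empty-vector doxycycline replicate 2 (0.71, adjusted p = 0.0858) or p63 doxycycline replicate 2 (0.72, adjusted p = 0.0781).

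PLAU, the urokinase activator, was also measured by 1 probe (ILMN_1656057), and its pattern was unlike that of PLAT. Its intensity was 259.5 and 266 in the empty-vector line without doxycycline and 242.6 and 317.3 with it. In the p63 line it was 212.3 and 203.4 without doxycycline and 213.8 and 162.6 with it. All 4 arrays of the p63 line were below all 4 of the empty-vector line, and within each line the groups with and without doxycycline overlapped. The effect of doxycycline was -0.21 ± 0.18 in the p63 line (interval -0.59 to 0.18, adjusted p = 0.736) and 0.09 ± 0.18 in the empty-vector line (interval -0.29 to 0.48, adjusted p = 0.992).

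Between the lines without doxycycline, PLAU differed by -0.42 ± 0.18 (interval -0.80 to -0.03), with an unadjusted p of 0.0358 and an adjusted p of 0.52. With doxycycline in both lines it was 1.64-fold lower in the p63 line (-0.72 ± 0.18, interval -1.10 to -0.33, adjusted p = 0.0363). Leaving out empty-vector doxycycline replicate 2 moved this to -0.49 (adjusted p = 0.253) and leaving out p63 doxycycline replicate 2 moved it to -0.46 (adjusted p = 0.242). The call was also lost at -0.72 without either no-doxycycline array of the empty-vector line (adjusted p = 0.0679 each) or of the p63 line (adjusted p = 0.0519 each), with only the 4 doxycycline arrays (adjusted p = 0.106), and at -0.57 without background correction (adjusted p = 0.0765). The PLAU difference is therefore close to the threshold.

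PLAUR, the receptor that holds urokinase at the cell surface, was measured by 3 probes, none of which was called in any comparison. The brightest probe (ILMN_2374340) read 204.8 and 255.7, then 218.4 and 244.2, in the empty-vector line without and with doxycycline. In the p63 line it read 228.4 and 278.6 without doxycycline and 255.9 and 277.3 with it. The groups overlapped with and without doxycycline in both lines, while with doxycycline both p63 arrays were above both empty-vector arrays. The effect of doxycycline in the p63 line was 0.10 (interval -0.24 to 0.44), and that of the line with doxycycline in both was 0.25 (interval -0.09 to 0.59, adjusted p = 0.411).

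The dimmest PLAUR probe (ILMN_2408543) read 174 and 165.7, then 173.1 and 184.5, in the empty-vector line, and 168.6 and 172.1, then 185.5 and 190, in the p63 line. Both induced arrays were above all others, the lower of them only just above the empty-vector array at 184.5. The effect of doxycycline in the p63 line was 0.19 (interval -0.03 to 0.40, adjusted p = 0.522). The remaining PLAUR probe (ILMN_1691508) ranged from 187.7 to 234.9 with overlapping groups, and its effect of doxycycline in the p63 line was 0.01 (interval -0.30 to 0.33). The upper ends of the 3 intervals leave a PLAUR rise of up to 0.44 on the log2 scale within reach of these data.

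SERPINE2, the inhibitor of both activators, was measured by 1 probe (ILMN_1655595). Its intensity was 1270 and 1382 in the empty-vector line without doxycycline and 1117.2 and 1003.2 with it. In the p63 line it was 1465 and 746.5 without doxycycline and 847.9 and 623.5 with it. The uninduced p63 arrays differed from each other by more than any group means did, and contained both the highest value of all 8 and 1 of the lowest 3. With doxycycline in the p63 line the difference was -0.55 ± 0.26 (interval -1.12 to 0.02, unadjusted p = 0.0576, adjusted p = 0.463). In the empty-vector line, where the groups with and without doxycycline did not overlap, it was -0.34 ± 0.26 (interval -0.91 to 0.24, adjusted p = 0.986). The difference of these effects was -0.21 ± 0.37 (adjusted p = 0.949).

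Between the lines, SERPINE2 differed by -0.36 without doxycycline (interval -0.93 to 0.21, adjusted p = 0.727) and by -0.57 ± 0.26 with it (unadjusted p = 0.0497, adjusted p = 0.249). Without p63 no-doxycycline replicate 2 the effect of doxycycline in the p63 line was -1.06 and passed the test (adjusted p = 0.0342). Without replicate 1 of that group it was -0.04. These arrays thus decide the value, and the group then rests on 1 array assumed to vary like the others.

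**Figure D2:**
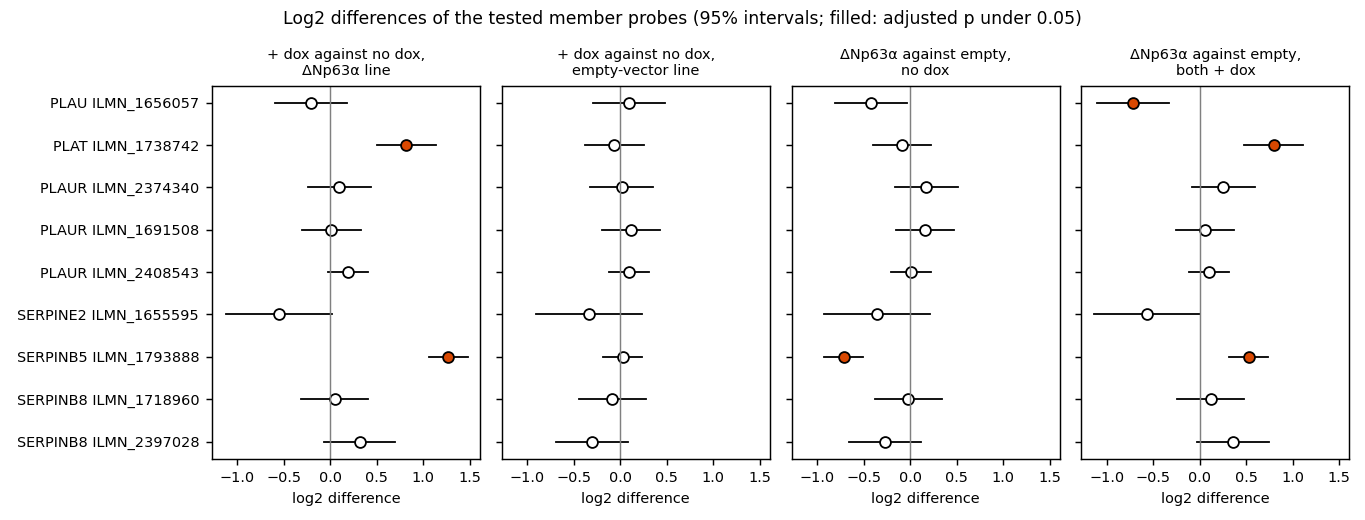
Log2 differences (horizontal axes) of the 9 tested probes in 4 comparisons, with 95% intervals from limma. Filled points passed an adjusted p of 0.05. In the p63 line SERPINB5 (1.27) and PLAT (0.82) are to the right, no point is filled in the empty-vector line, and SERPINB5 changes side between the comparison of lines without doxycycline (-0.71) and with it (0.53).

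SERPINB5 (maspin; 1 probe, ILMN_1793888) had the smallest SE of the 9 tested probes (0.0956 for a difference of 2 groups). Its intensity was 250.6 and 251.1 in the empty-vector line without doxycycline and 254.4 and 255.7 with it. It was 171.8 and 169.3 in the p63 line without doxycycline and 334.3 and 361.3 with it. The order of the groups was therefore the uninduced p63 line, then both empty-vector groups, then the induced p63 line. No groups overlapped, but the empty-vector groups were apart by only 0.03 on the log2 scale (interval -0.18 to 0.24, adjusted p = 0.993).

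With doxycycline in the p63 line SERPINB5 rose 2.41-fold, by 1.27 ± 0.0956 (interval 1.06 to 1.48, adjusted p = 7.52e-05). It ranked 11 by p and 29 by size of rise among the 23086 probes. The effect was larger than in the empty-vector line by 1.24 ± 0.14 (interval 0.94 to 1.53, adjusted p = 0.00238). SERPINB5 was the 1 member probe of 9 called in this interaction, against 0.347% of all probes. The rise was called in all 16 alternative settings (1.03 to 1.33), and the interaction in all 15 that could be run (1.00 to 1.30).

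SERPINB5 was 1.64-fold lower in the p63 line than in the empty-vector line when neither received doxycycline (-0.71 ± 0.0956, interval -0.92 to -0.50, adjusted p = 0.0491). It was 1 of 6 probes called lower there, against 0.0260% of all probes, and no probe was called higher. The lines did not overlap for 3 of the 9 member probes, against 40.7% of all probes. The call is at the edge of the threshold. It was lost without either no-doxycycline array of the empty-vector line (-0.71 each, adjusted p = 0.573 and 0.316), either no-doxycycline array of the p63 line (-0.73 and -0.70, adjusted p = 0.268 and 0.199) or either doxycycline array of the empty-vector line (-0.71, adjusted p = 0.0726 each). It was also lost for SERPINB5 without background correction (-0.56, adjusted p = 0.12) and with a filter requiring all 8 arrays above background (-0.71, adjusted p = 0.0567). The size of the difference moved little when an array was left out, from -0.73 to -0.70.

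With doxycycline in both lines SERPINB5 was 1.44-fold higher in the p63 line (0.53 ± 0.0956, interval 0.32 to 0.74, adjusted p = 0.0104). Counted over the 9 probes, 2 were higher (PLAT and SERPINB5) and 1 lower (PLAU) in this comparison, against 6.02% of all probes (2.86% higher and 3.16% lower). Groups did not overlap for 6 of the 9, against 48.7% of all probes, so that non-overlap by itself is common. The SERPINB5 call was lost without empty-vector doxycycline replicate 2 (0.53, adjusted p = 0.0656) or p63 doxycycline replicate 2 (0.46, adjusted p = 0.0837). The 2.41-fold rise of SERPINB5 within the p63 line and its 1.44-fold excess over the empty-vector line thus describe the same induced arrays against different references. The comparisons share arrays and are not independent of each other.

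SERPINB8 was measured by 2 probes. The first (ILMN_1718960) read 229.5 and 222.7, then 219.2 and 212.5, in the empty-vector line, and 196.1 and 256.6, then 205.4 and 258.0, in the p63 line. The p63 groups overlapped almost entirely, and the effect of doxycycline there was 0.05 (interval -0.31 to 0.41, adjusted p = 0.958). The second (ILMN_2397028) read 217.1 and 231.5, then 219.3 and 165.3, in the empty-vector line, and 177.6 and 212.3, then 212.5 and 249.9, in the p63 line. Its differences were 0.31 in the p63 line (interval -0.07 to 0.70, adjusted p = 0.563) and -0.31 in the empty-vector line (interval -0.69 to 0.08, adjusted p = 0.986). The difference of these effects was 0.62 ± 0.25, with an unadjusted p of 0.0295 and an adjusted p of 0.604. SERPINB8 was thus not called by either probe in any comparison. The 2 estimates in the p63 line differ in size, but their intervals overlap and the difference between the probes was not tested.

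Along the chromosome 18 row only SERPINB5 and SERPINB8 were above background in the p63 line. SERPINB10, next to SERPINB8, passed the filter through the empty-vector line without doxycycline and was dim on all 4 arrays of the p63 line, so no effect is given for it. Of the others, 6 genes including SERPINB7 did not pass the filter in any group and SERPINB2 had no named probe. In the p63 line the row therefore gives values for the genes at its ends and none for the stretch between them.

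**Figure D3:**
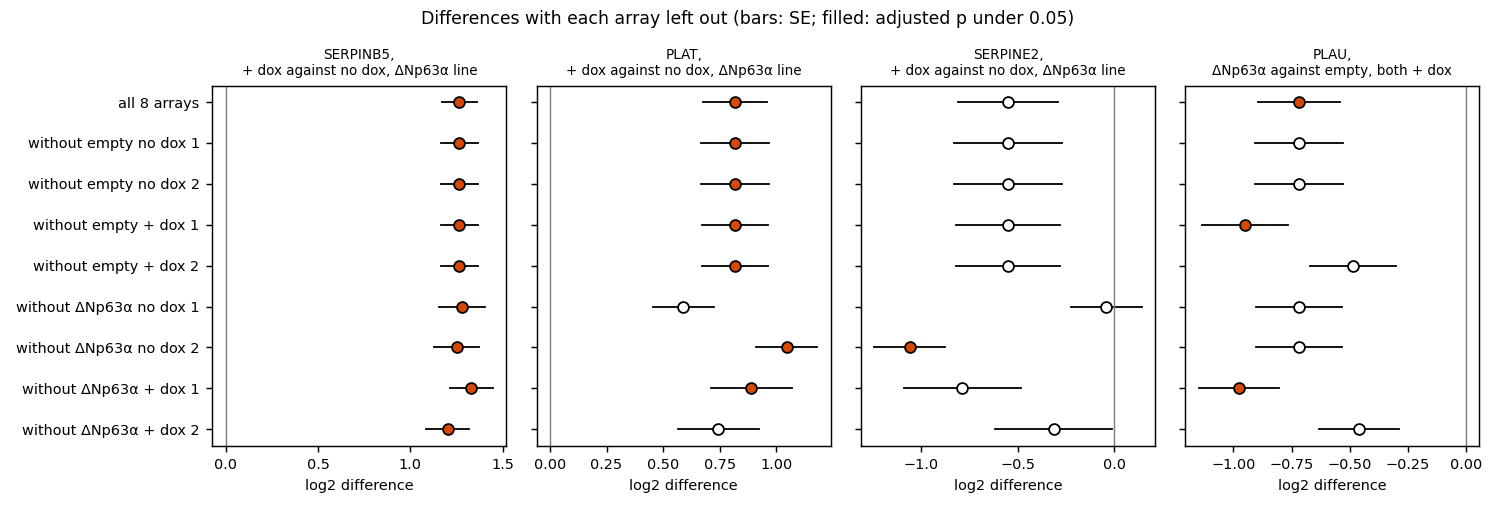
Log2 differences (horizontal axes) for 4 results with all 8 arrays and with each array left out in turn. Bars are SE, and filled points passed an adjusted p of 0.05. SERPINB5 stayed between 1.20 and 1.33 and filled throughout, PLAT ranged from 0.59 to 1.05, SERPINE2 from -1.06 to -0.04, and PLAU from -0.98 to -0.46.

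The other genes of the system were read as lists, 1 brightest probe a gene, beside 2.23% of the 12385 tested genes called in either direction with doxycycline in the p63 line (1.19% higher and 1.03% lower). The median change was -0.01 over all tested genes and 0.07 over the 6 measured members. Genes that were dim on all 4 arrays of the p63 line are left out of what follows. Of 9 other clade B serpins this leaves 1, SERPINB1, an inhibitor of neutrophil proteases, at 0.38 ± 0.16 (adjusted p = 0.379). Of 21 serpins of other clades 6 remained after SERPINA5 and SERPINA11 were left out as dim, and 0 were called, with a range from -0.35 for the collagen chaperone SERPINH1 to 0.42 for SERPINA3 (adjusted p = 0.216). Of 14 genes for plasminogen, its receptors and the uptake receptors of the activators, 8 were measured and 0 called, with a median of 0.04. PLG itself did not pass the filter on dim probes, and the plasminogen receptor PLGRKT stood highest in this list at 0.39 (adjusted p = 0.175).

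Of 24 pericellular serine proteases, their receptors and Kunitz inhibitors, 9 remained after KLK6 was left out as dim, and of these 1 rose and 1 fell. PROCR, the endothelial protein C receptor, read 466.7 and 424.6, then 404.6 and 406.9, in the empty-vector line, and 423.2 and 459.5, then 951.8 and 1019.1, in the p63 line. Both induced arrays were above all others, and PROCR rose 2.37-fold with doxycycline in the p63 line (1.25 ± 0.10, adjusted p = 1.33e-04). F3 (tissue factor, the receptor that starts coagulation) read 376 and 339.7, then 352.3 and 329.1, in the empty-vector line, and 255.9 and 310.6, then 191.5 and 202.7, in the p63 line by its brightest probe. The induced arrays were the lowest, and F3 fell by 0.64 ± 0.13 with doxycycline in the p63 line (adjusted p = 0.0305). The other F3 probe gave -0.60 ± 0.15 and did not pass (adjusted p = 0.107). The F3 call was lost in 7 of 16 settings, with values from -0.80 to -0.47 over all of them. It was lost without either no-doxycycline array of the empty-vector line (-0.64, adjusted p = 0.059 each), p63 no-doxycycline replicate 2 (-0.47, adjusted p = 0.205) or p63 doxycycline replicate 1 or 2 (-0.58 and -0.69, adjusted p = 0.141 and 0.115). It was also lost for F3 without background correction (-0.52, adjusted p = 0.0744) and with only the 4 arrays of the p63 line (-0.64, adjusted p = 0.0928).

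The PROCR effect differed between the lines (1.40 ± 0.15, adjusted p = 0.00194), and it was the 1 gene of these lists besides SERPINB5 called there, against 0.517% of all tested genes (0.339% higher). With doxycycline in both lines PROCR was 2.60-fold higher in the p63 line (1.38, adjusted p = 6.74e-05) and F3 was 1.94-fold lower (-0.96, adjusted p = 0.00187), against 8.11% of tested genes called (3.83% higher and 4.29% lower). SERPINA3 (0.54 ± 0.14, adjusted p = 0.0399) and IGF2R, a receptor that also binds PLAUR and plasminogen (0.44 ± 0.11, adjusted p = 0.0449), were called higher there as well, and are named after their values were seen. Without doxycycline no gene of these lists other than SERPINB5 was called, against 0.0404% of tested genes. Doxycycline in the empty-vector line gave no call in any list. Over all 23086 probes, limma gave 0 calls there and 1020 probes at an unadjusted p under 0.05, where chance alone gives 1154.

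**Figure D4:**
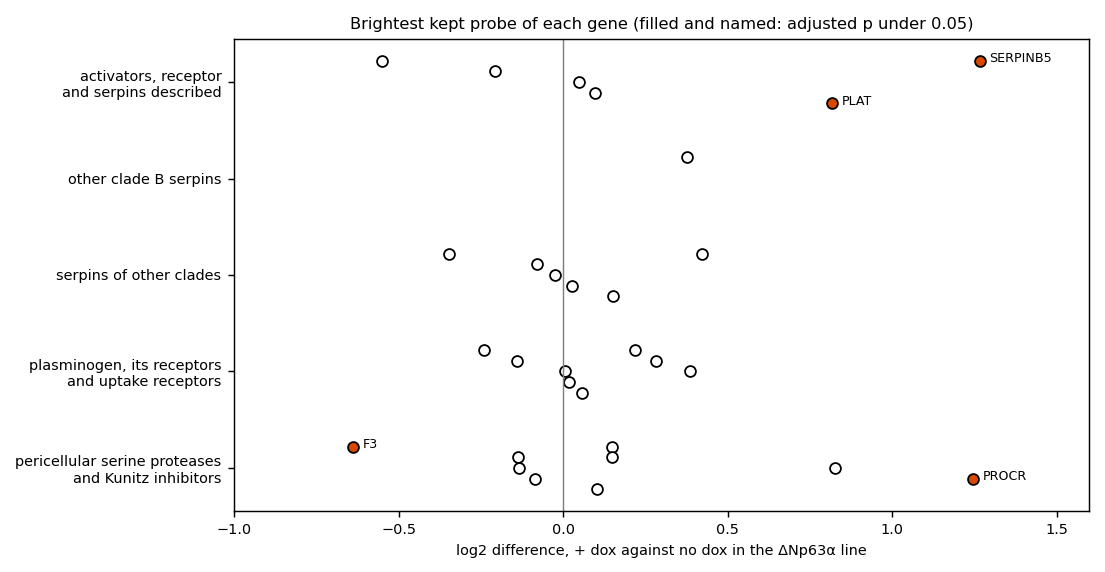
Log2 difference with doxycycline in the p63 line (horizontal axis) of the brightest kept probe of each gene that was above background on at least 1 array of the p63 line, in 5 lists (rows, with points spread vertically for sight only). Filled and named points passed an adjusted p of 0.05. SERPINB5 (1.27), PLAT (0.82) and PROCR (1.25) are to the right and F3 (-0.64) to the left, and the open point at 0.83 is THBD (adjusted p = 0.221), a gene close to background on most arrays.

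For the members called with doxycycline in the p63 line, the genes with the most similar course over the 8 arrays were sought among the other 12384 tested genes, by the root-mean-square difference of centred log2 values. For PLAT they were SEL1L3 (0.100, Pearson r = 0.962), SLCO4A1 (0.113, r = 0.952) and MCL1 (0.121, r = 0.982). Their log2 differences with doxycycline in the p63 line were 0.68, 0.60 and 0.57. For SERPINB5 they were LIMA1 (0.128, r = 0.964), FOXA2 (0.161, r = 0.935) and SYNE2 (0.167, r = 0.979). Their values in the uninduced p63 line were lower too, at -0.41, -0.49 and -0.39 against the empty vector. Their differences with doxycycline in the p63 line were 1.08, 1.16 and 0.84. Both traits follow from choosing genes by their likeness over these same arrays. The likeness is a description over 8 arrays in 4 groups, which all genes share.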

How the data were processed

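RNA was extracted with a QIAGEN RNeasy kit and biotinylated cRNA was made with the Ambion MessageAmp kit, per the labels' protocols. The authors deposited linear intensity values for 47304 probes on 8 arrays, with software and normalisation not given in the sources used here. The sorted values of each array differed by at most 0.175 from their mean over the arrays, so no further normalisation was done. A second table of 16 columns (8 of intensities, 8 of detection p-values) was not used, because its column names match no sample's labels.

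Probes were named from the platform annotation: 30105 carry 1 symbol, 8 several and 17191 none. The background level of 114.3 is the peak of the values, 106.9, plus 1.645 times their spread below it, 4.52. Intensities were corrected with limma 3.58.1 (normexp, offset 50) in R 4.3.3, log2 transformed and fitted on all 8 arrays with a mean for each group, which leaves 4 residual degrees of freedom. The number of arrays limits the precision, with a median SE of 0.113 for a difference of 2 groups. Two-sided empirical Bayes tests were adjusted by Benjamini-Hochberg over 23086 probes, with a threshold of 0.05, in 5 comparisons. The tests were checked on simulated data with noise independent between arrays. That check does not cover differences between replicates that are shared by groups. Promoter windows come from RefSeq tables. The text names each member probe and, from the other lists, genes called in the p63 line or in the interaction. Other list genes that are named (ends of ranges, genes at the filter, SERPINB1, SERPINA3, IGF2R and THBD) were chosen after their values were seen. Members and lists were chosen with earlier results of these data known. Alternatives were background correction, filters, 1 probe a gene, fewer arrays in the fit, robust variance, the replicate number as a block, each array left out, and a background level from the most frequent value, which was chosen after seeing the data.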

Additional observations from a re-analysis of the deposited data

Results flagged for a closer look

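The effect of doxycycline differed between the lines, by the test of the interaction, for SERPINB5 (difference of the log2 effects 1.24, adjusted p = 0.00238) and for PROCR (1.40, adjusted p = 0.00194). SERPINB5 moved by 1.27 in the p63 line and by 0.03 in the empty-vector line, and PROCR by 1.25 and -0.15. Without doxycycline, the p63 line differed from the empty-vector line by -0.02 for PROCR (interval -0.24 to 0.21) and by -0.71 for SERPINB5 (interval -0.92 to -0.50).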

How the results depend on the processing

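With 2 arrays a group, single arrays limit most calls. No value called in the main setting changed direction in any alternative. SERPINB5 and PROCR kept their calls in the p63 line and in the interaction in all settings run. Among the member values by setting, 651 kept direction and side of the threshold, 23 lost a call, 1 (SERPINE2) gained one and 31 uncalled values changed sign; the cause was not tested. With doxycycline in the p63 line, the 359 probes called became 230 without background correction and 201 with only the arrays compared, where 1 of the 2 member probes stayed called. The 80 interaction calls became 53 without background correction, and the 1390 calls between the lines with doxycycline became 669 with only the arrays compared. Without doxycycline, the 1 member probe called became 0 without background correction and 0 with the stricter filter, and the 6 calls over all probes became 0 without background correction, 28 with no filter and 25 with only the arrays compared. Leaving out each array in turn gave 1 to 3 member probes and 124 to 342 of all probes in the p63 line, 0 and 0 in the empty-vector line, 1 and 27 to 79 for the interaction, 0 to 1 and 0 to 9 between the lines without doxycycline, and 0 to 3 and 384 to 1237 with it. Over all probes, the fewest in the p63 line came without p63 no-doxycycline replicate 1. Between the lines with doxycycline, the fewest came without empty-vector doxycycline replicate 2. Each such fit leaves a group with 1 array, assumed to vary like the others.

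The labels do not say what a replicate number stands for. Differences between replicates 1 and 2 correlated between groups at 0.0387 to 0.422. With the replicate number as a block, calls over all probes became 602 in the p63 line, 167 in the interaction, 47 between the lines without doxycycline and 2204 between the lines with doxycycline, and the numbers of member probes called were 2, 1, 1 and 3, as without the block.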
